A study of Mus musculus with 32 samples.

Results

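Gastrocnemius, the fast calf muscle, was compared between mice 28 days after a complete spinal cord injury (SCI) that had been treated with boldine and mice 28 days after sham surgery that had been given vehicle. The libraries were taken by their labels: 6 libraries of injured, boldine-treated mice and 4 of sham mice, 10 of the 32 RNA-seq libraries in the series. All mice were young males per the series title, and the labels used here give no strain, exact age or dose. The rest of the series holds injured mice given vehicle at 28 days (6 libraries) and the same 3 groups at 7 days. No 28-day group combines sham surgery with boldine, so the comparison of boldine-treated injured mice with sham mice changes surgery and drug together, and the effects of the injury and of boldine cannot be told apart within it. The labels do not say which libraries came from separate mice, so p-values speak only for the variation among libraries, which may be partly technical.

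An injury of the spinal cord that is complete cuts the muscle off from commands of the brain, although motor neurons below the lesion may stay alive and in contact with their fibres. Muscle that is no longer used loses mass and tends to exchange slow, oxidative fibres, which carry slow isoforms of myosin, troponin and the calcium pump SERCA, for fast ones. Muscle that has lost its nerve also switches on genes such as the fetal acetylcholine receptor subunit, myogenic factors and Gadd45a. Boldine is a plant alkaloid that blocks the open hemichannels formed by connexins and pannexins.

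The 28-day libraries fell into 2 sets that the labels do not describe. They were told apart by Hipk2, a kinase gene, at a limit of 30 CPM (read counts scaled to the same library total). Hipk2 stood at 10.5, 6.25, 21.8 and 13.5 CPM in the 4 sham libraries and at 63.9 to 86.2 (median 75.1) CPM in the 6 boldine libraries. The non-coding gene A630019I02Rik, which lies within Cmya5 on the opposite strand, showed the same split, with 2.83, 2.02, 3.41 and 4.64 CPM in sham and 101 to 501 (median 234) CPM with boldine. Every sham library was thus in the low set and every boldine library in the high set, so that treatment and library set coincided and their effects cannot be told apart from these 10 libraries alone. Injured mice given vehicle were the only 28-day group with both sets, with 4 libraries in the low set (replicates 1 to 4) and 2 in the high set (replicates 5 and 6). A fit with a library-set term therefore rests on those 6 libraries: it adds the difference of boldine from the 2 high vehicle libraries to the difference of the 4 low vehicle libraries from sham. The column of boldine replicate 6 carries the letter code of the 28-day vehicle columns, not that of the other 5, and its title was followed. On the first principal component of the 28-day libraries it lay at 14.9, against 14.6 to 27.0 for the others and -41.3 to -33.8 for sham. The 2 high-set vehicle libraries lay at 17.7 and 16.1, so this component cannot tell boldine from high-set vehicle libraries. Without boldine replicate 6, of the boldine against sham calls of genes named here only those of Krt8 and Utrn ended, as given below. Between boldine and vehicle 0 genes were called higher and 0 lower without it, so the 3 calls of that comparison ended. The 10 libraries held 10655924 to 12886336 counts, and their 10 most abundant genes took 25.8 to 29.2% of them.

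Of 14955 genes tested, 1314 were higher in boldine-treated injured mice than in sham mice (8.79%) and 1399 were lower (9.35%), by edgeR's quasi-likelihood test at a Benjamini-Hochberg adjusted p under 0.05. Differences below are log2 fold changes of boldine over sham with their standard error (±), from that test. Beyond a 2-fold change, 309 were higher and 213 lower. With library totals in place of TMM factors, which shifts the median log2 difference of all genes from -0.01 to -0.10, the split was 842 higher and 1999 lower. The CPM of the groups did not overlap for 1244 genes that were higher with boldine (8.32% of those tested) and 1260 that were lower (8.43%). With the library-set term 90 genes were higher (0.602%) and 129 lower (0.863%), and 198 of the 2713 calls, 82 higher and 116 lower, remained with the same direction. Of 104 called genes that are named with values, 30 kept their call with the term and are given with their value there; a gene with no such value was not called with it. Most others kept their sign: 1192 of the 1314 higher and 1368 of the 1399 lower genes had a difference of the same sign in that fit. Of the genes called beyond 2-fold, 280 of 309 higher and 210 of 213 lower genes kept theirs. The difference between the sets was itself called for 131 genes higher and 13 lower in the high set, and 97 of these were called in the same direction between boldine and sham. None was called in the opposite direction.

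**Figure D1:**
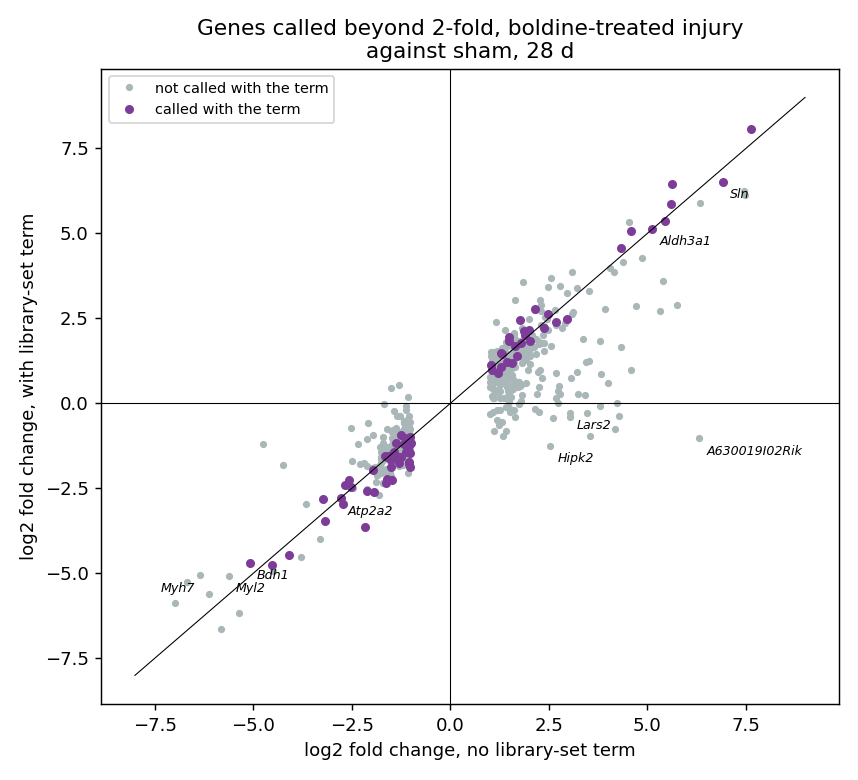
Each point is 1 of the 522 genes called beyond 2-fold between boldine-treated injured mice and sham mice at 28 days. The horizontal axis is the log2 fold change without the library-set term and the vertical axis the one with it, the line marks equal values, and purple points were called in both. Slow-fibre genes such as Myh7 and Atp2a2 lie near the line, whereas Hipk2, which defines the sets, A630019I02Rik and Lars2 change sign.

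Long transcripts were over-represented among the higher genes. Of the 3735 genes with the longest exonic sequence (6441 to 123179 bases), 679 were higher and 287 lower, with a median log2 difference of 0.08. Of the 3737 shortest (36 to 2354 bases), 214 were higher and 331 lower, with a median of -0.04. The high-set vehicle libraries differed from the low-set vehicle libraries in the same way, by a median of 0.07 among the longest genes and -0.04 among the shortest, and with the library-set term the medians of boldine against sham were 0.010 and -0.001. The values of some very long muscle genes follow, and the part of transcript length in their differences was not tested. Ttn, the titin spring of the sarcomere, stood at 10022, 9096, 9735 and 9913 CPM in sham and 14731 to 16717 (median 15607) CPM with boldine. Its difference of 0.68 ± 0.15 (adjusted p = 0.0014) on the log2 scale was 0.23 (adjusted p = 0.72) with the set term, and the vehicle libraries gave 11254 to 12193 CPM in the low set and 16892 and 15063 CPM in the high set. Neb, which encodes the thin-filament ruler nebulin, went from 0.67 ± 0.13 (adjusted p = 2.9e-04) to 0.35 (adjusted p = 0.46). Dmd, which encodes dystrophin, kept its call: it rose from 82.6, 87.2, 87.4 and 84.5 CPM in sham to 133 to 194 (median 156) CPM, by 0.91 ± 0.09 (adjusted p = 3.9e-08), and by 0.69 (adjusted p = 0.0093) with the set term.

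The slow-fibre programme was lower in boldine-treated injured mice, and its genes made up 7 of the 12 largest falls among protein-coding genes with a mean of at least 5 CPM. Of 12 slow-fibre genes tested, 10 fell and none rose, with a median log2 difference of -2.67, against -0.01 over all genes tested. Their summed level was 869 to 2409 CPM in sham and 147 to 295 CPM with boldine. In bulk muscle, fewer fibres of a type and less of its RNA per fibre cannot be told apart.

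Myh7, the heavy chain of slow myosin (ENSMUSG00000053093.16, chr14:54970684-54994626, minus strand, mm10), stood at 807, 652, 413 and 212 CPM in the sham libraries and at 1.02 to 16.7 (median 4.76) CPM in the boldine libraries. Even the lowest sham library lay far above the highest boldine library, and sham replicate 4 was the lowest of its group here and for most slow genes. The difference was -6.34 ± 0.63 (adjusted p = 3.0e-08) on the log2 scale. With the library-set term it was -5.06 ± 1.60 and not called (adjusted p = 0.11), although vehicle libraries of both sets lay with the boldine libraries, at 3.16 to 9.16 CPM in the low set and 1.72 and 2.41 CPM in the high set. Reads of its antisense gene Mhrt cannot be told apart from its own in a library kit that does not mark strand.

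The light chains of slow myosin followed. Myl2, the slow regulatory light chain, stood at 211, 139, 215 and 83.6 CPM in sham and 0.465 to 6.95 (median 2.49) CPM with boldine, a fall of 5.62 ± 0.54 (adjusted p = 1.6e-08). With the set term its difference was -5.08 (adjusted p = 0.14). Myl3, the slow essential light chain, had 288, 243, 236 and 145 CPM in sham and 35.4 to 96.3 (median 45.1) CPM with boldine (-2.11 ± 0.42, adjusted p = 4.8e-04). Neither gene's groups overlapped. Of the thin-filament regulators, Tnnc1, the calcium-binding troponin of slow fibres, stood at 94.9, 74.4, 48.2 and 21.2 CPM in sham against 1.09 to 6.87 (median 2.00) CPM (-4.50 ± 0.52, adjusted p = 2.5e-07). Tnni1, the slow inhibitory troponin, stood at 86.7, 65.3, 36.5 and 17.96 CPM against 0.743 to 6.36 (median 2.03) CPM (-4.08 ± 0.48, adjusted p = 3.4e-07). Tnnt1, the slow troponin that binds tropomyosin, stood at 171, 171, 107 and 51.6 CPM against 5.95 to 23.9 (median 11.7) CPM (-3.19 ± 0.45, adjusted p = 5.6e-06). The 3 troponin genes thus separated sham from boldine libraries completely, and Tnni1 and Tnnt1 were also called with the set term, by -4.47 (adjusted p = 0.013) and -3.46 (adjusted p = 0.018), while Tnnc1 was not, at -4.93 (adjusted p = 0.06). Tpm3, the slow tropomyosin, had 193, 191, 139 and 65.3 CPM in sham and 18.1 to 29.6 (median 25.7) CPM with boldine (-2.56 ± 0.34, adjusted p = 2.8e-06), and -2.25 (adjusted p = 0.044) with the set term.

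Atp2a2, which encodes the slow calcium pump SERCA2 (ENSMUSG00000029467.15, chr5:122453513-122502225, minus strand, mm10), stood at 404, 389, 390.2 and 193 CPM in sham and within a narrow 45.3 to 56.03 (median 49.5) CPM with boldine. It fell by 2.78 ± 0.27 (adjusted p = 1.5e-08), and by 2.80 (adjusted p = 0.0011) with the set term. All 6 vehicle libraries lay beside the boldine libraries, at 49.1 to 56.3 CPM in the low set and 48.5 and 58.4 CPM in the high set. Myoz2, which anchors calcineurin at the Z-disc of slow fibres, had 101, 91.9, 106 and 56.9 CPM in sham and 8.92 to 42.4 (median 20.4) CPM with boldine (-1.98 ± 0.39, adjusted p = 4.3e-04). Myh7b, a slow-tonic myosin, had overlapping groups, with 17.9, 13.7, 12.98 and 4.24 CPM in sham and 2.87 to 8.25 (median 5.47) CPM with boldine. Its difference of -1.17 ± 0.36 (adjusted p = 0.022) was no longer called without sham replicate 1, 2 or 3 or boldine replicate 3 (adjusted p = 0.12, 0.062, 0.053 and 0.057), and it was -0.58 (adjusted p = 0.76) with the set term. The remaining members were not called: Myl6b differed by -0.12 ± 0.18 (adjusted p = 0.71) and Casq2, the cardiac and slow calsequestrin, by -0.11 ± 0.26 (adjusted p = 0.82), and Casq2 changed sign without sham replicate 1 (0.05).

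**Figure D2:**
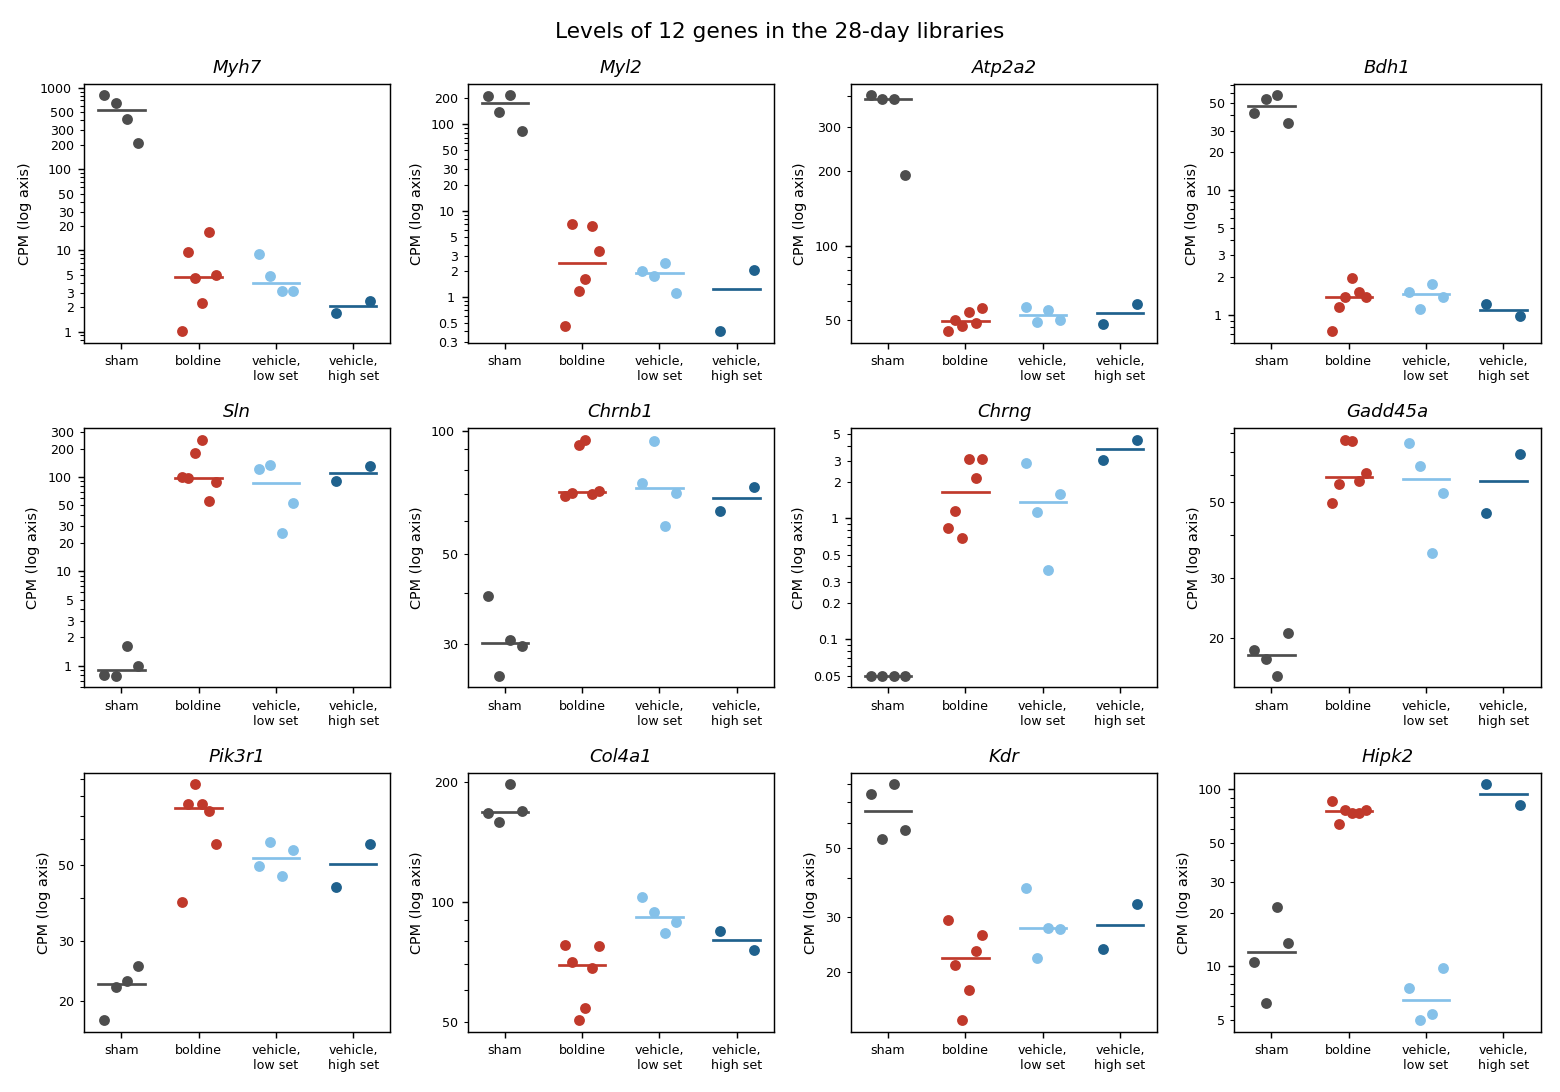
Levels of 12 genes in the 28-day libraries, in CPM on log axes, one point per library, with bars at group medians; vehicle libraries are split by library set, and libraries with no Chrng count are drawn at 0.05 CPM. Sham (193 to 404 CPM for Atp2a2) and boldine (45.3 to 56.0 CPM) do not overlap in any panel. For Hipk2, which defines the sets, the low-set vehicle libraries lie with sham by that choice. For Myh7, Atp2a2 and Bdh1 vehicle libraries of both sets lie with boldine.

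The heavy chains of adult myosin showed the same change as shares. Counts per kilobase of exonic length were expressed as a share of the sum over Myh7, Myh2, Myh1 and Myh4, the type I, IIa, IIx and IIb myosins. Myh7 made up 0.423% ± 0.206 (SD, n = 4) of this sum in sham and 0.00450% ± 0.00394 (SD, n = 6) with boldine. Myh2 made up 3.31% ± 0.697 (SD, n = 4) in sham and 0.860% ± 0.483 (SD, n = 6) with boldine. For both, no boldine library reached the lowest sham library, and a two-sided exact permutation test over the 210 assignments gave p = 0.00476, the smallest it allows (adjusted p = 0.00952 over the 4 genes). The Myh1 share was 4.91% ± 1.12 in sham and 6.61% ± 1.48 with boldine, which did not pass the exact permutation test (p = 0.081, adjusted p = 0.108). Myh4 held 91.4% ± 1.83 and 92.5% ± 1.70 (exact permutation p = 0.305), so that the muscle was almost wholly of the IIb transcript in both groups. These genes are near-identical over long stretches, and how the authors' counting treated reads shared between them is not given in the sources used here.

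**Figure D3:**
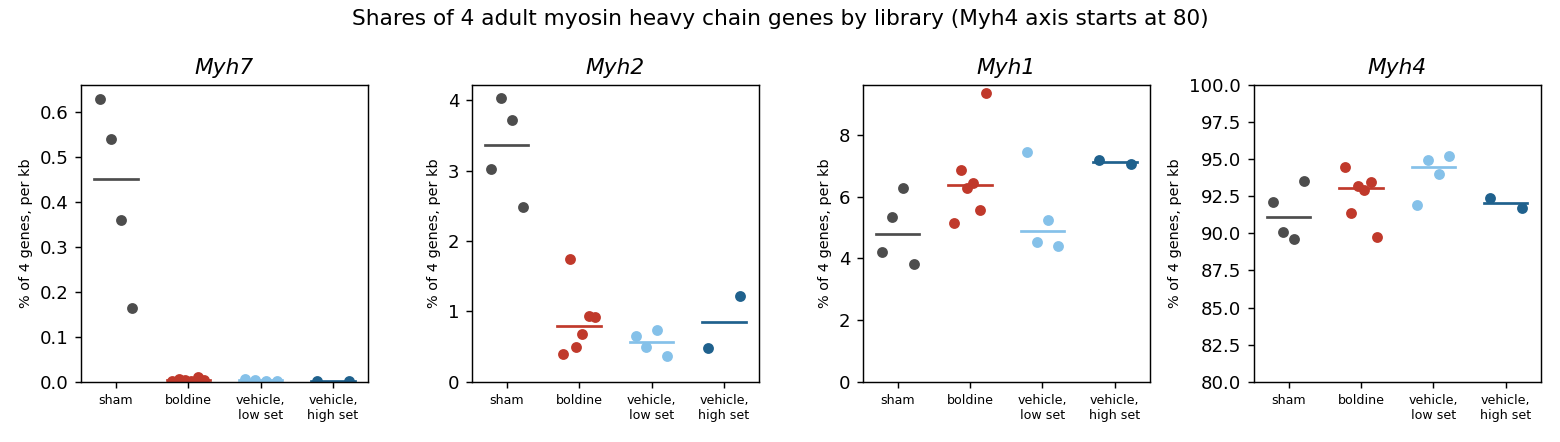
Share of each of 4 adult myosin heavy chain genes in their sum of counts per kilobase, in percent, for every 28-day library, with bars at group medians and the Myh4 axis starting at 80. The Myh7 share falls from 0.164 to 0.629% in sham to at most 0.0111% with boldine, and the Myh2 share from 2.48 to 4.03% to at most 1.74%.

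Most genes of fast fibres were higher by small amounts, and few were called. Their summed level was 210490 to 238120 CPM in sham and 256740 to 300090 CPM with boldine. Of 16 tested, 3 rose and 1 fell, and the median was 0.28, although 12 of the 16 had higher CPM in every boldine library than in every sham library (against 8.32% of all genes). Mylpf, the fast regulatory light chain, rose from 7124, 6283, 5936 and 6162 CPM to 9744 to 12405 (median 11142) CPM (0.80 ± 0.19, adjusted p = 0.0034). Actn3, the fast alpha-actinin of the Z-disc, rose from 10971, 9714, 8714 and 10360 CPM to 14261 to 17016 (median 15654) CPM (0.67 ± 0.21, adjusted p = 0.026), and this call ended without sham replicate 2 or 3 (adjusted p = 0.067 and 0.088). The gene that fell was Myh2, from 3205, 4033, 3539.6 and 2662 CPM to 477 to 1950.3 (median 966) CPM (-1.71 ± 0.41, adjusted p = 0.0034; -2.35, adjusted p = 0.074 with the set term), with no overlap. Without sham replicate 2 or 3 a single fast gene was called higher, and with the library-set term none was. Among 16 developmental and load-sensing sarcomere genes, 3 rose and 3 fell (median -0.21), against 8.79% higher and 9.35% lower among all genes tested. Actc1, the cardiac actin of immature muscle, had overlapping groups at 264, 161, 79.01 and 68.5 CPM in sham and 186 to 1122 (median 541) CPM with boldine and differed by 1.94 ± 0.44 (adjusted p = 0.002). Flnc, the filamin that senses load at the Z-disc, fell from 1255, 1043, 1054 and 859 CPM to 477 to 805 (median 603) CPM (-0.79 ± 0.17, adjusted p = 0.0012). The counts were 1 higher without sham replicate 3 or 4 or boldine replicate 4 and 1 lower without sham replicate 3, and neither gene was called with the set term (adjusted p = 0.39 and 0.48).

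At the neuromuscular synapse, subunits of the acetylcholine receptor and the kinase that organises it were higher in boldine-treated injured mice. Of 16 genes tested, 7 rose and 1 fell, with a median of 0.27, which is the same whether Chrng is taken at its fitted value or at the bound given below. The receptor genes are known targets of myogenic factors, which bind the E-box CANNTG. The RefSeq promoters of 4 of the higher genes are shown for this reason, from 250 bases before to 50 after the annotated start, on the gene's strand (build GRCm38.p6), with E-boxes in capitals: Chrng at chr1:87205561-87205860 (plus strand), Chrna1 at chr2:73580289-73580588 (minus strand), Chrnb1 at chr11:69795888-69796187 (minus strand) and Musk at chr4:58285712-58286011 (plus strand).
Chrng: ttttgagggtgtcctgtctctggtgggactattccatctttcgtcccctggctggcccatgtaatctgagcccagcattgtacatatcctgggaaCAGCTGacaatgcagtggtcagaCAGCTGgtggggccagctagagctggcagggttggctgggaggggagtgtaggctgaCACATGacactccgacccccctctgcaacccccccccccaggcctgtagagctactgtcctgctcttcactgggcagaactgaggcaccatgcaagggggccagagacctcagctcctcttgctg
Chrna1: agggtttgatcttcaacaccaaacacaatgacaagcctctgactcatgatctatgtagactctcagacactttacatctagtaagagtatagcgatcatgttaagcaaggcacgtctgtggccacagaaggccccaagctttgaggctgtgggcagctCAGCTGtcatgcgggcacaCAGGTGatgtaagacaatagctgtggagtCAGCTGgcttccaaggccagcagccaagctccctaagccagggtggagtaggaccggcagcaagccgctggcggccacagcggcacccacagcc
Chrnb1: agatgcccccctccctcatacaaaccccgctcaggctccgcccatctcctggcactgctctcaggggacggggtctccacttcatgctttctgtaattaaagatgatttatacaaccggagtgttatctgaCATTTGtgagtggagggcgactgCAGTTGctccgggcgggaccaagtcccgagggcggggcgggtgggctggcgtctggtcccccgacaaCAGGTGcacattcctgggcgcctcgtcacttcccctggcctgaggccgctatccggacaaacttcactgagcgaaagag
Musk: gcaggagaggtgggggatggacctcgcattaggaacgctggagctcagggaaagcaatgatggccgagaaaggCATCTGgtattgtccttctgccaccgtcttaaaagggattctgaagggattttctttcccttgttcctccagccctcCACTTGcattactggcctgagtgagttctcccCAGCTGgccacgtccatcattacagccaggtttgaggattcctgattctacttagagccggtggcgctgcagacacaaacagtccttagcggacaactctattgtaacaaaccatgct
Each held 3 matches to CANNTG, a pattern that is its own reverse complement, so that 1 search covers both strands. Among all 32851 such RefSeq promoters, 72.3% held at least 1 and 17.6% at least 3, so such a match is common, and it is a match of letters and not evidence of binding.

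Chrnb1, the beta subunit shared by fetal and adult receptors, stood at 39.5, 25.2, 30.8 and 29.8 CPM in sham and 69.04 to 94.9 (median 70.7) CPM with boldine, with no overlap. It rose by 1.32 ± 0.14 (adjusted p = 7.3e-08), and by 1.44 (adjusted p = 0.0011) with the library-set term, the only receptor subunit called there. Chrng, the subunit of the fetal receptor (ENSMUSG00000026253.14, chr1:87204657-87212694, plus strand, mm10), had no count in any sham library and 0.692 to 3.11 (median 1.66) CPM with boldine. Set against the 3 counts that a count of 0 allows over the 4 sham libraries together, the 112 counts of the boldine libraries were at least 26.5-fold higher, and the gene was called (adjusted p = 3.3e-04; 0.081 with the set term). Chrna1, the subunit that carries the binding site, rose from 16.5, 11.5, 18.2 and 11.7 CPM to 24.9 to 37.9 (median 35.2) CPM (1.18 ± 0.26, adjusted p = 0.0014). Every boldine library exceeded every sham library for all 3 genes. Chrnd, the delta subunit, stood at 1.77, 2.20, 2.08 and 2.62 CPM in sham and 3.79 to 5.96 (median 4.52) CPM with boldine (1.10 ± 0.34, adjusted p = 0.023), and its call ended without sham replicate 1, 2 or 3 (adjusted p = 0.073, 0.054 and 0.058), and it was 0.15 (adjusted p = 0.93) with the set term. Chrne, the subunit of the adult receptor, did not pass the test at 0.53 ± 0.20 (adjusted p = 0.056).

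Musk, the receptor kinase that clusters acetylcholine receptors, rose from 13.7, 7.83, 13.5 and 15.3 CPM to 25.8 to 39.8 (median 37.5) CPM (1.51 ± 0.19, adjusted p = 1.2e-06). The groups did not overlap, but vehicle libraries of the low set gave 16.5 to 25.2 CPM and those of the high set 33.9 and 32.9 CPM, and with the set term the difference was 0.84 (adjusted p = 0.11). Dok7, the adaptor that activates Musk from inside the fibre, rose from 13.5, 18.6, 16.1 and 14.9 CPM to 20.2 to 44.4 (median 30.04) CPM (0.96 ± 0.19, adjusted p = 4.9e-04). Utrn, the utrophin of the postsynaptic membrane, differed by 0.43 ± 0.14 (adjusted p = 0.036), with overlapping groups and a call that ended without any 1 of sham replicates 1 and 4 and boldine replicates 1, 2, 5 and 6 (adjusted p = 0.15, 0.077, 0.086, 0.061, 0.061 and 0.079). In the opposite direction, Lynx1, a membrane-anchored protein known to damp nicotinic receptors, fell from 201, 229, 243 and 222 CPM to 65.8 to 87.3 (median 72.7) CPM with no overlap (-1.58 ± 0.17, adjusted p = 7.3e-08; -1.55, adjusted p = 0.004 with the set term). The 8 uncalled members, among them the scaffold gene Rapsn and the esterase gene Ache, had log2 differences between -0.50 and 0.53.

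Genes known to respond to denervation were higher in boldine-treated injured mice. Of 20 tested, 14 rose and none fell, with a median of 1.44. The largest was Sln, which encodes sarcolipin, a small inhibitor of SERCA (ENSMUSG00000042045.6, chr9:53850164-53854560, plus strand, mm10). Sln stood at 0.797, 0.792, 1.61 and 1.01 CPM in sham and 56.3 to 247 (median 98.1) CPM with boldine. It rose by 6.92 ± 0.56 (adjusted p = 1.4e-09), and by 6.52 (adjusted p = 3.9e-05) with the set term, and the vehicle libraries gave 25.8 to 135 CPM in the low set and 90.3 and 131 CPM in the high set. Gadd45a, a stress factor that is induced when muscle loses its nerve, rose from 18.4, 17.3, 15.5 and 20.7 CPM to 49.6 to 76.2 (median 59.3) CPM (1.80 ± 0.29, adjusted p = 3.6e-05; 1.78, adjusted p = 0.044 with the set term). Scn3b, an auxiliary sodium channel subunit, rose from 1.68, 1.58, 1.89 and 1.61 CPM to 2.88 to 7.36 (median 4.58) CPM (1.49 ± 0.28, adjusted p = 2.9e-04; 1.82, adjusted p = 0.031 with the set term). None of the 3 had overlapping groups.

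Among ligands and transcriptional regulators, Gdf5, a BMP family ligand, had 3 counts over the 4 sham libraries and 212 over the 6 boldine libraries, a ratio of 50.1 (95% counting interval 16.9 to 245). Its fitted difference of 5.45 ± 0.88 (adjusted p = 4.6e-05) was 5.36 (adjusted p = 0.013) with the set term and 6.41 without sham replicate 3. Sox11 had 2 and 72 counts, a ratio of 25.5 (6.82 to 215; adjusted p = 6.1e-04). These intervals cover counting error only. Runx1, a transcription factor that preserves denervated fibres in mice, rose from 1.68, 2.20, 1.89 and 1.51 CPM to 5.67 to 13.1 (median 9.56) CPM (2.38 ± 0.41, adjusted p = 1.2e-04; 1.78, adjusted p = 0.13 with the set term). Hdac4, the deacetylase that links nerve activity to synaptic genes, rose from 43.99, 38.4, 34.7 and 40.9 CPM to 58.6 to 91.6 (median 67.7) CPM (0.87 ± 0.14, adjusted p = 6.9e-05). Both separated the groups completely.

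Myog and Myod1, the myogenic factors, rose as well. Myog went from 2.66, 2.73, 1.52 and 1.11 CPM to 3.69 to 7.15 (median 5.58) CPM (1.43 ± 0.35, adjusted p = 0.0041) and Myod1 from 13.4, 10.7, 15.3 and 14.3 CPM to 15.5 to 33.5 (median 27.5) CPM (0.95 ± 0.25, adjusted p = 0.0069). Cdkn1a, the cell-cycle inhibitor p21, had overlapping groups at 5.49, 17.1, 10.9 and 7.57 CPM and 15.7 to 29.8 (median 24.7) CPM (1.20 ± 0.34, adjusted p = 0.012), and its call ended without sham replicate 1 (adjusted p = 0.061). Kcnn3, an SK potassium channel that denervated fibres gain, rose from 2.21, 1.85, 1.89 and 2.02 CPM to 3.72 to 8.68 (median 6.04) CPM (1.56 ± 0.39, adjusted p = 0.0046; 0.55, adjusted p = 0.73 with the set term). Krt18, a keratin, rose from 0.177, 0.0880, 1.14 and 0 CPM to 1.79 to 9.78 (median 4.89) CPM by 3.92 ± 0.72 (adjusted p = 2.1e-04), and by 5.72 without sham replicate 3, and its difference was 2.77 (adjusted p = 0.13) with the set term. Its partner Krt8 had 2 and 69 counts, a ratio of 24.5 (6.52 to 206), and barely passed (adjusted p = 0.049). That call ended without any 1 of the sham libraries or without boldine replicate 3, 4 or 6 (adjusted p = 0.12, 0.12, 0.09, 0.08, 0.13, 0.1 and 0.053). Ankrd1, a stretch-responsive ankyrin repeat gene, differed by 1.45 ± 0.45 (adjusted p = 0.022) with overlapping groups, and its call ended without sham replicate 3 or 4 or boldine replicate 4 (adjusted p = 0.081, 0.082 and 0.12). Without boldine replicate 4 it was 0.92. With the set term, Sln, Gadd45a, Scn3b and Gdf5 were the 4 members called higher, and Hdac9, uncalled without the term at -0.50, was called lower.

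Calcium-handling genes other than Sln changed by little. Of 20 tested, 3 rose and 2 fell (median 0.07), against 8.79% higher and 9.35% lower among all genes tested. Trdn, the triadin of the calcium release complex, rose from 1282, 1195, 1181 and 1267 CPM to 1622 to 1930.2 (median 1752) CPM (0.52 ± 0.13, adjusted p = 0.0048), and in vehicle libraries it stood at 1537 to 1616 CPM in the low set and 1951 and 1918 CPM in the high set. Cacnb1, the beta subunit of the voltage sensor, rose from 169, 159, 151 and 173 CPM to 196 to 221 (median 204) CPM (0.35 ± 0.07, adjusted p = 6.5e-04; 0.49, adjusted p = 0.021 with the set term). The members that fell were Pln, the phospholamban brake on SERCA2, at -0.98 ± 0.34 (adjusted p = 0.042), and S100a1, a calcium sensor, at -0.30 ± 0.09 (adjusted p = 0.017). Pln was -0.22 (adjusted p = 0.9) with the set term and was no longer called without sham replicate 2 or 3 or boldine replicate 1, 3 or 4 (adjusted p = 0.11, 0.19, 0.085, 0.068 and 0.09), and S100a1 was not without sham replicate 2 or 3 (0.09 and 0.052). The count of lower genes was thus 0 or 1 without those libraries. The other 15 lay between -0.29 and 0.44.

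**Figure D4:**
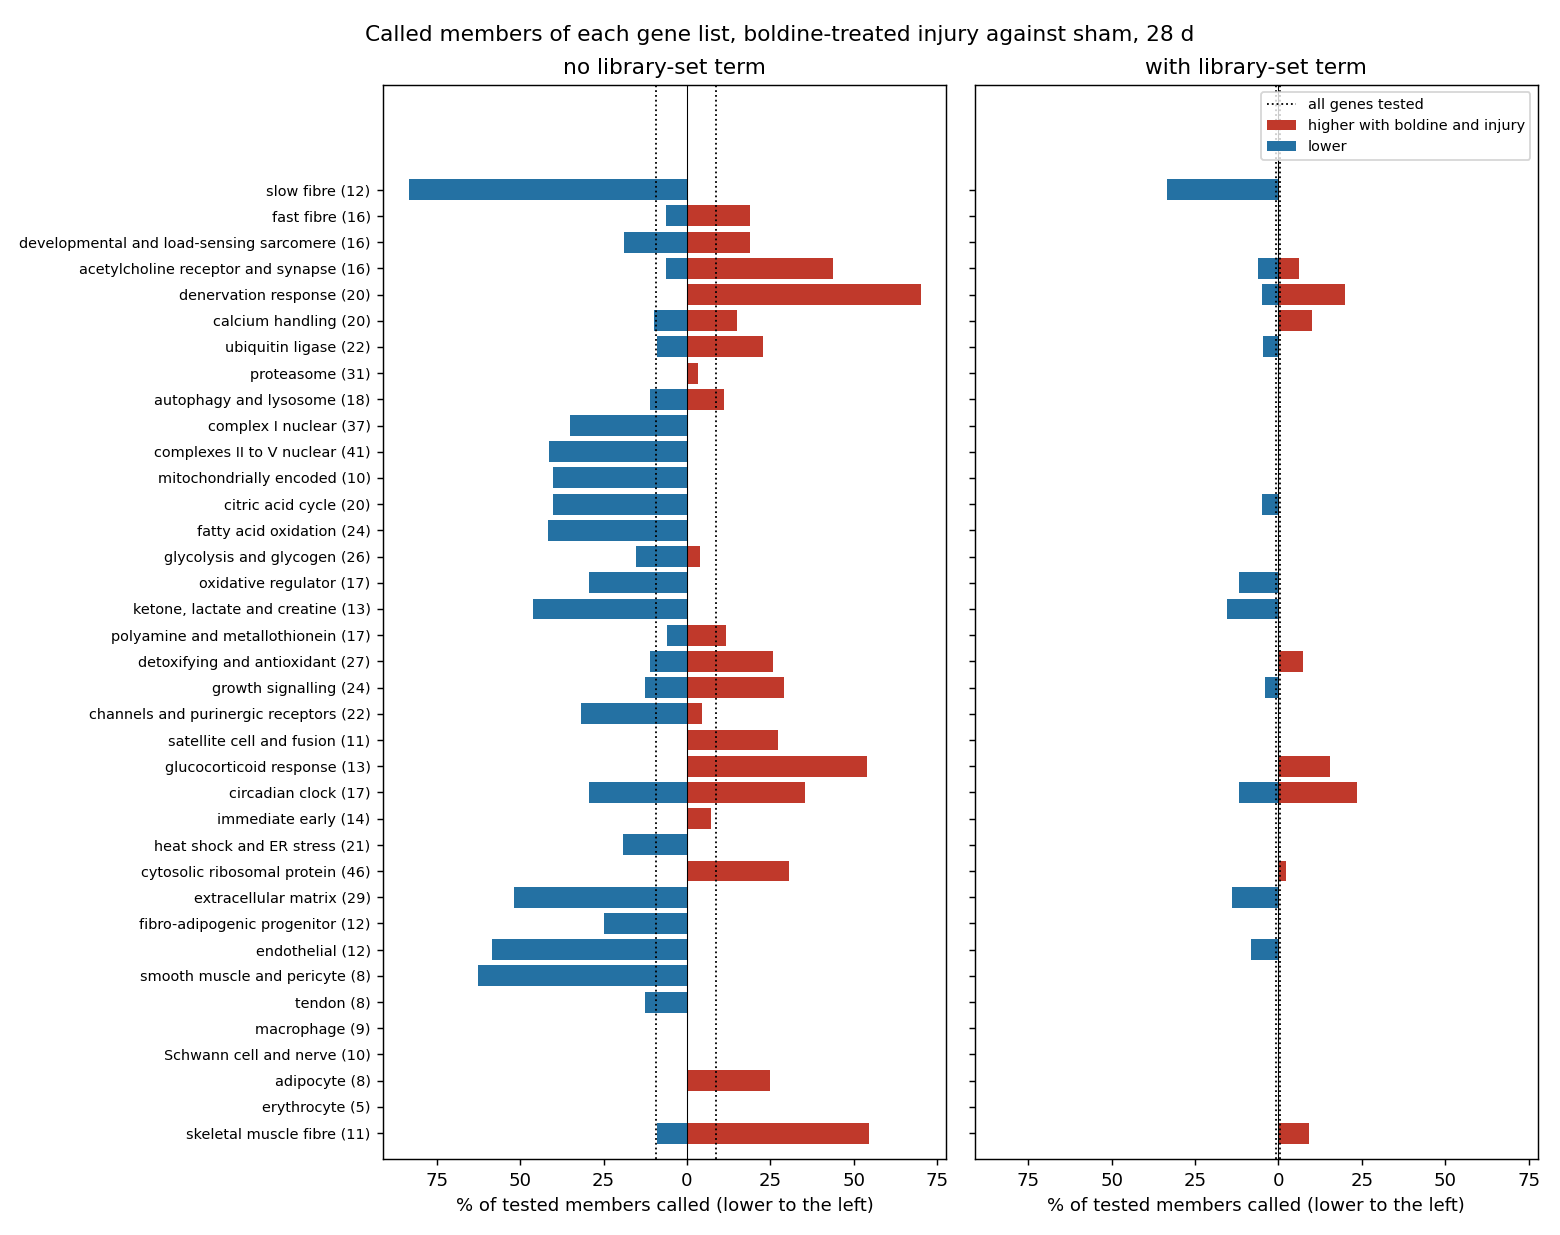
Percent of the tested members of each gene list that were called higher (to the right) or lower (to the left) in boldine-treated injured mice than in sham mice at 28 days, without (left) and with (right) the library-set term; the number tested is in brackets and dotted lines mark all genes tested. Lists with fewer than 5 tested members are not drawn. Slow-fibre (10 of 12 lower) and denervation-response genes (14 of 20 higher) stand out on the left, and 4 of each remain on the right.

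A part of the genes of oxidative metabolism was lower, mostly by small amounts. Of 37 nuclear genes for respiratory complex I, 13 fell and none rose (median -0.18). For complexes II to V, 17 of 41 fell and none rose (median -0.24). Of 10 genes tested on the mitochondrial genome, 4 fell and none rose (median -0.29). None of these 88 genes was called with the library-set term. Ndufs8, a core subunit of complex I, fell from 101, 117, 104 and 87.3 CPM to 70.05 to 84.2 (median 76.3) CPM (-0.42 ± 0.08, adjusted p = 3.9e-04). Sdhc, which anchors complex II in the membrane, fell from 217, 270.5, 229 and 197 CPM to 159 to 182 (median 164) CPM (-0.44 ± 0.08, adjusted p = 1.9e-04). Cycs, the electron carrier cytochrome c, fell from 290.0, 314, 306 and 269 CPM to 216 to 242 (median 226) CPM (-0.37 ± 0.08, adjusted p = 6.7e-04). All 3, named for their small p, had groups that did not overlap. Every boldine library lay below every sham library for 6 of the 37 complex I genes and 10 of the 41 of complexes II to V. This held for 1 of the 10 mitochondrially encoded genes, and for 8.43% of all genes tested. mt-Co1, the catalytic subunit of complex IV, stood at 30069, 33060, 35839 and 29514 CPM in sham and 22368 to 28420 (median 24786) CPM with boldine (-0.37 ± 0.11, adjusted p = 0.019). Its call ended without sham replicate 2 or 3 (adjusted p = 0.053 and 0.085).

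These counts leaned on single sham libraries and on the scaling. For complex I, 8 genes were lower without sham replicate 1, 3 without sham replicate 2, 5 without sham replicate 3 and 8 without boldine replicate 1, 3, 4 or 5. For complexes II to V, 9 were lower without sham replicate 2 or 3. Of the mitochondrially encoded genes, none was lower without sham replicate 3, 1 without sham replicate 2 or boldine replicate 3 or 4, and 2 without boldine replicate 1, 5 or 6. With the replicate number as a block the 3 counts were 8, 13 and 1. With library totals 28 complex I, 28 complex II to V and 8 mitochondrially encoded genes were lower.

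Genes of fuel supply were lower in part as well. In the citric acid cycle 8 of 20 genes fell and none rose (median -0.11), and in fatty acid oxidation 10 of 24 fell and none rose (median -0.33). The citric acid cycle count was 3 without sham replicate 2 and 5 without sham replicate 3, without boldine replicate 4 or with the replicate block, and 1 fatty acid oxidation gene was called higher without boldine replicate 1 or 5. Idh2, the mitochondrial isocitrate dehydrogenase, fell from 294, 423, 319 and 219.6 CPM to 97.02 to 146 (median 108) CPM (-1.48 ± 0.21, adjusted p = 9.6e-06; -1.22, adjusted p = 0.082 with the set term). Lpl, the lipase that frees fatty acids from lipoproteins at the capillary wall, fell from 673, 908, 804 and 504 CPM to 224 to 400.2 (median 258) CPM (-1.37 ± 0.22, adjusted p = 5.3e-05; -1.36, adjusted p = 0.062 with the set term). No boldine library of either gene reached the lowest sham library. Mdh1, the cytosolic malate dehydrogenase, fell by 0.54 ± 0.11 (adjusted p = 5.4e-04) and Hadh, an enzyme of the beta-oxidation spiral, by 0.61 ± 0.11 (adjusted p = 1.1e-04). Of 17 regulators of oxidative metabolism 5 fell and none rose. Esrra, the orphan receptor that drives mitochondrial genes, fell from 139, 156, 144 and 135 CPM to 81.6 to 101 (median 93.8) CPM (-0.62 ± 0.07, adjusted p = 4.5e-07; -0.56, adjusted p = 0.014 with the set term). Perm1, a muscle partner of that pathway, fell from 259, 299, 272 and 206 CPM to 100.3 to 142 (median 129) CPM (-1.04 ± 0.22, adjusted p = 0.0013).

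Among the metabolic genes named here the largest fall was in ketone use. Bdh1, the mitochondrial enzyme that oxidises beta-hydroxybutyrate, stood at 41.2, 53.4, 57.3 and 34.6 CPM in sham and 0.743 to 1.98 (median 1.39) CPM with boldine. It fell by 5.08 ± 0.44 (adjusted p = 4.2e-09), and by 4.68 (adjusted p = 0.039) with the set term, and the vehicle libraries lay at 1.12 to 1.76 CPM in the low set and 1.21 and 0.983 CPM in the high set. Of 13 ketone, lactate and creatine genes, 6 fell and none rose, with each library left out in turn as well. Ckmt2, the mitochondrial creatine kinase of striated muscle, fell from 887, 1184, 1091 and 824 CPM to 399 to 616 (median 462) CPM (-1.01 ± 0.21, adjusted p = 7.6e-04). Of 26 glycolysis and glycogen genes, 1 rose and 4 fell (median -0.01), against 8.79% higher and 9.35% lower among all genes tested. Ldhb, the lactate dehydrogenase subunit of oxidative tissue, fell from 174, 273, 205 and 132 CPM to 45.1 to 80.8 (median 52.5) CPM (-1.78 ± 0.32, adjusted p = 1.8e-04), and Gys1, the muscle glycogen synthase, by 0.49 ± 0.10 (adjusted p = 6.9e-04).

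Genes of protein breakdown did not move as a block at this time. Of 22 ubiquitin ligase and Foxo genes, 5 rose and 2 fell, of 31 proteasome subunits 1 rose, and of 18 autophagy and lysosome genes 2 rose and 2 fell. Among all genes tested 8.79% were higher and 9.35% lower. With library totals 7 of the ubiquitin ligase genes were lower, 2 proteasome genes rose without boldine replicate 5, and 1 autophagy gene fell without sham replicate 2. Foxo1, the transcription factor that activates atrophy genes, rose from 15.05, 16.8, 16.4 and 17.9 CPM to 21.5 to 103 (median 69.5) CPM (2.00 ± 0.31, adjusted p = 2.8e-05; 1.59, adjusted p = 0.1 with the set term), a wide spread that still cleared every sham library. Klhl34 and Kbtbd13, both adaptors of cullin ligases, fell by 1.68 ± 0.31 (adjusted p = 2.3e-04) and 1.33 ± 0.25 (adjusted p = 2.4e-04). Kbtbd13 was also called with the set term, at -1.59 (adjusted p = 0.045).

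Genes responsive to glucocorticoids were higher. Of 13 tested, 7 rose and none fell (median 0.83), and 6 to 9 rose with 1 library left out. Pik3r1, the regulatory subunit of PI3-kinase, rose from 17.5, 21.99, 22.8 and 25.2 CPM to 38.9 to 86.6 (median 74.1) CPM (1.63 ± 0.17, adjusted p = 3.9e-08; 1.69, adjusted p = 0.0011 with the set term). Glul, glutamine synthetase, rose from 108, 248, 103 and 133 CPM to 319.5 to 762 (median 683) CPM (2.00 ± 0.28, adjusted p = 5.0e-06; 2.16, adjusted p = 0.0095 with the set term). These 2 genes showed no overlap, whereas Fkbp5, a chaperone of the glucocorticoid receptor, overlapped at 19.2, 52.3, 30.6 and 30.5 CPM and 52.2 to 165 (median 106) CPM (1.70 ± 0.34, adjusted p = 6.1e-04).

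Circadian clock genes moved in both directions. Of 17 tested, 6 rose and 5 fell. Nr1d1, the repressor REV-ERB alpha, fell from 216, 192, 205 and 160.3 CPM to 69.8 to 97.4 (median 81.7) CPM (-1.24 ± 0.11, adjusted p = 6.7e-09; -0.92, adjusted p = 0.0061 with the set term). Per2, a repressor of the core clock, rose from 13.9, 21.1, 14.4 and 20.8 CPM to 32.8 to 41.7 (median 35.97) CPM (1.06 ± 0.13, adjusted p = 5.0e-07; 0.99, adjusted p = 0.0093 with the set term). Bhlhe41, also a repressor of clock genes, fell from 126, 89.02, 135 and 131 CPM to 56.6 to 69.3 (median 63.2) CPM (-0.92 ± 0.13, adjusted p = 5.0e-06; -0.89, adjusted p = 0.029 with the set term). None of the 3 overlapped, and the hour of tissue collection is not given in the sources used here.

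Growth signalling, with 24 genes tested, had 7 higher and 3 lower, and 4 higher without sham replicate 2 or 4 or with library totals. For this and the other lists of this paragraph, the shares of all genes tested were 8.79% higher and 9.35% lower. Fst, the secreted inhibitor of activins and myostatin, rose from 2.57, 3.08, 1.80 and 3.13 CPM to 7.18 to 11.7 (median 8.28) CPM (1.74 ± 0.34, adjusted p = 4.2e-04), and Acvr2a, a receptor of those ligands, rose by 0.62 ± 0.12 (adjusted p = 2.8e-04). With the set term they were 1.42 (adjusted p = 0.17) and 0.34 (adjusted p = 0.42). Ostn, the bone and muscle peptide osteocrin, fell from 48.2, 33.1, 20.1 and 39.5 CPM to 5.27 to 11.8 (median 7.64) CPM (-2.12 ± 0.26, adjusted p = 8.8e-07; -2.58, adjusted p = 0.0013 with the set term). Of 14 immediate early genes 1 rose (against 8.79% of all genes tested): Myc, from 2.04, 1.76, 4.17 and 2.62 CPM to 5.17 to 8.53 (median 7.04) CPM (1.41 ± 0.31, adjusted p = 0.0016), with 2 called without sham replicate 2 or boldine replicate 1 or 6 and 1 called lower without sham replicate 4 or boldine replicate 4 or 5. Of 21 heat shock and endoplasmic reticulum stress genes 4 fell, among them Hsph1, a co-chaperone, by 0.62 ± 0.15 (adjusted p = 0.0037). Of 46 cytosolic ribosomal protein genes 14 rose by small amounts (median 0.17), such as Rps4x from 222, 194, 205 and 214 CPM to 259 to 306 (median 271) CPM (0.39 ± 0.07, adjusted p = 3.1e-04; 0.51, adjusted p = 0.026 with the set term). That count was 7 without sham replicate 3 or boldine replicate 3, 8 without sham replicate 2 or 4, and 1 with library totals. Of 11 satellite cell and fusion genes 3 rose, and 1 without sham replicate 1 or 3; 1 was called lower without boldine replicate 5.

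The detoxifying enzyme genes Aldh3a1 and Cyp2e1 were among the 12 largest rises of protein-coding genes with a mean of at least 5 CPM and no overlap. Of 27 detoxifying and antioxidant genes 7 rose and 3 fell, against 8.79% higher and 9.35% lower among all genes tested. A single member fell without sham replicate 2 or 3 or boldine replicate 3. Aldh3a1, an aldehyde dehydrogenase, rose from 0.354, 0.264, 0.5684 and 0.303 CPM to 5.85 to 23.4 (median 10.5) CPM (5.12 ± 0.74, adjusted p = 9.6e-06; 5.13, adjusted p = 0.0087 with the set term). Cyp2e1, the cytochrome P450 that oxidises ethanol, rose from 1.42, 1.85, 1.89 and 1.01 CPM to 6.46 to 52.3 (median 12.5) CPM (3.53 ± 0.73, adjusted p = 7.7e-04). It was 2.85 without boldine replicate 2, its highest library, and 3.30 (adjusted p = 0.12) with the set term. Aldh1a1, which makes retinoic acid, rose by 0.76 ± 0.17 (adjusted p = 0.0018), and Ces2c, a carboxylesterase, by 2.55 ± 0.65 (adjusted p = 0.0055). With the set term they were 0.76 (adjusted p = 0.21) and 1.69 (adjusted p = 0.39). Of 17 polyamine and metallothionein genes 2 rose and 1 fell, near the shares of all genes tested (8.79% higher, 9.35% lower). Mt2, a metal-binding metallothionein, went from 0.266, 2.20, 1.04 and 1.11 CPM to 2.51 to 13.4 (median 11.1) CPM (2.95 ± 0.77, adjusted p = 0.0068). Without sham replicate 1 a single member of that list rose, and without sham replicate 3 or 4 or boldine replicate 2 none fell.

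Among channels and purinergic receptors, the families that include the known targets of boldine, 7 of 22 fell and 1 rose (median -0.33); 4 fell without sham replicate 2 and none was called with the set term. Panx1, which forms the pannexin hemichannel and was chosen after its values were seen, fell from 7.61, 11.9, 7.58 and 9.48 CPM to 2.53 to 6.70 (median 4.03) CPM with no overlap (-1.13 ± 0.35, adjusted p = 0.023). That call ended without sham replicate 2 or boldine replicate 2 (adjusted p = 0.094 and 0.051), and injured mice given vehicle lay at 2.58 to 5.86 CPM in the low set and 2.63 and 4.64 CPM in the high set. Kcna7, a voltage-gated potassium channel, fell by 0.77 ± 0.19 (adjusted p = 0.0043).

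Several basement membrane collagen genes and part of the blood vessel genes were lower with boldine and injury than in sham. Of 29 extracellular matrix genes 15 fell and none rose (median -0.49), although 1 was called higher without boldine replicate 4. The 14 uncalled members, among them the laminin gene Lama2, lay between -0.69 and 0.68. Col4a1, a chain of basement membrane collagen, fell from 167, 159, 198 and 169.5 CPM to 50.6 to 78.2 (median 69.6) CPM (-1.38 ± 0.14, adjusted p = 3.0e-08; -1.17, adjusted p = 0.0061 with the set term). Its partner Col4a2, which lies head to head with it, fell by 1.29 ± 0.14 (adjusted p = 1.7e-07), and Col15a1, which links basement membrane to the matrix, by 1.45 ± 0.17 (adjusted p = 2.5e-07) (-1.48, adjusted p = 0.0065 with the set term). Of 12 endothelial genes, counted with Vegfa, 7 fell and none rose (median -0.50). Kdr, the main VEGF receptor of endothelium, fell from 74.4, 53.6, 79.96 and 57.3 CPM to 14.03 to 29.4 (median 22.2) CPM (-1.60 ± 0.20, adjusted p = 8.3e-07; -1.59, adjusted p = 0.011 with the set term). Cdh5, the cadherin of endothelial junctions, fell by 0.81 ± 0.14 (adjusted p = 1.1e-04), and Vegfa, the ligand of Kdr that fibres themselves make, by 0.57 ± 0.10 (adjusted p = 1.2e-04).

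Of 8 smooth muscle and pericyte genes 5 fell, or 3 without sham replicate 2 (median -0.61), but with the set term the median was -0.14 and none was called. Pdgfrb, the growth factor receptor of pericytes, stood at 49.5, 37.4, 38.9 and 40.9 CPM in sham and 22.3 to 37.9 (median 25.3) CPM with boldine (-0.58 ± 0.14, adjusted p = 0.0031). In vehicle libraries it stood at 39.5 to 41.8 CPM in the low set and 24.7 and 36.8 CPM in the high set, and Notch3 went likewise from -0.64 ± 0.16 (adjusted p = 0.0039) to -0.12 (adjusted p = 0.88) with the set term. Of 8 tendon genes 1 fell, against 9.35% of all genes (the median of the list was -1.03, and 0.29 with the set term). That gene, Chad, which encodes the matrix protein chondroadherin, fell from 3.19, 2.64, 2.56 and 2.02 CPM to 0.0943 to 0.842 (median 0.383) CPM (-2.52 ± 0.70, adjusted p = 0.011; -0.73, adjusted p = 0.83 with the set term).

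Markers of the cell types a piece of muscle can hold moved with these groups. Of the 12 endothelial genes Vegfa, which fibres themselves make, had the most counts, so their sum is not that of endothelium alone. The summed CPM of the 12 was 658 to 822 in sham and 441 to 602 with boldine. The summed CPM of the 8 smooth muscle and pericyte genes was 517 to 570.2 and 305 to 474. For the 8 tendon genes it was 73.9 to 96.7 and 31.02 to 72.7. For the 8 adipocyte genes, 2 of which rose (4 without sham replicate 2 and 1 without sham replicate 1, 3 or 4 or boldine replicate 2), it was 296 to 458 and 522 to 1183. Plin4, a lipid-droplet coat protein also made by fibres, was 1 of them, rising by 1.40 ± 0.26 (adjusted p = 2.0e-04). Plin4 held most of the list's counts, 9562 over the sham and 35130 over the boldine libraries, followed by Fabp4 with 5338 and 6659. The adipocyte sum thus mostly follows Plin4. Of the 12 fibro-adipogenic progenitor genes 3 fell (median -0.09), while their summed CPM was 769.8 to 889.6 in sham and 824 to 1193 with boldine. None of the 9 macrophage, 10 Schwann cell and nerve and 5 erythrocyte genes tested was called, apart from 1 Schwann cell gene without boldine replicate 2, and 2 of 13 neutrophil and lymphocyte genes had enough counts to test, with no call. The 11 markers of the fibre itself summed to 178630 to 199050 CPM in sham and 221000 to 257230 CPM with boldine, with 6 higher and 1 lower. The part of these other cell types in the differences above was not tested.

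The genes with the largest changes outside these lists had varied roles. Hpgd, which inactivates prostaglandins, rose from 1.06, 1.23, 1.14 and 1.01 CPM to 2.15 to 20.2 (median 7.92) CPM (3.21 ± 0.72, adjusted p = 0.0019). Srrm4, a splicing factor of neural exons, rose from 1.68, 1.41, 0.758 and 1.01 CPM to 4.77 to 10.3 (median 8.15) CPM (2.67 ± 0.33, adjusted p = 6.9e-07; 2.39, adjusted p = 0.0087 with the set term). Cntfr, the receptor of ciliary neurotrophic factor, rose from 8.32, 9.24, 8.72 and 9.28 CPM to 33.6 to 62.3 (median 46.2) CPM (2.38 ± 0.27, adjusted p = 2.5e-07; 2.22, adjusted p = 0.0061 with the set term). Kcnf1, a silent potassium channel subunit, rose by 2.48 ± 0.54 (adjusted p = 0.0015), Aif1l by 2.33 ± 0.54 (adjusted p = 0.0022) and Glb1l2 by 2.14 ± 0.43 (adjusted p = 6.6e-04), and none of these was called with the set term (adjusted p = 0.23, 0.3 and 0.25). Dusp18, a dual-specificity phosphatase, fell from 25.1, 26.2, 32.2 and 19.7 CPM to 2.87 to 5.34 (median 3.98) CPM (-2.66 ± 0.24, adjusted p = 6.7e-09; -2.39, adjusted p = 0.0036 with the set term). Pcp4l1, related to a calmodulin regulator, fell from 50.7, 66.3, 65.6 and 49.1 CPM to 6.62 to 13.7 (median 10.5) CPM (-2.52 ± 0.28, adjusted p = 1.0e-07; -2.46, adjusted p = 0.0067 with the set term). The sets were defined by Hipk2, so its difference of 2.53 ± 0.59, and of -1.24 with the set term, is no independent result. A630019I02Rik, which showed the same split, differed by 6.31 ± 1.40 (adjusted p = 0.0016) and by -1.03 (adjusted p = 0.82) with the set term. Lars2, the mitochondrial leucyl-tRNA synthetase, also reversed: its 3.03 ± 0.89 (adjusted p = 0.015) was -0.28 (adjusted p = 0.95) with the set term, and its call ended without sham replicate 2 (adjusted p = 0.059) or without boldine replicate 4 (2.09, adjusted p = 0.071). Reads of genes that overlap on the opposite strand could not be separated for several genes named here, among them Mt2 (Gm45774), Bdh1 (Gm15743), Glul (Teddm2), Nr1d1 (Thra), Myl2 (Ccdc63), Myl3 (Pth1r), Runx1 (Gm26626), Srrm4 (Srrm4os), Mdh1 (Wdpcp), Gys1 (Ruvbl2) and Plin4 (Hdgfl2).

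Whether boldine changed the injured muscle is addressed by the vehicle-treated injured mice, which are set against the same 4 sham libraries and so do not give independent differences from sham. Direct comparison of boldine with vehicle at 28 days gave 3 calls among 14955 genes (0.0201%), with 1430 at an unadjusted p under 0.05. Fryl stood at 26.2 to 34.98 (median 29.4) CPM with boldine, and in vehicle libraries at 16.5 to 20.8 CPM in the low set and 24.6 and 20.3 CPM in the high set (0.56 ± 0.10, adjusted p = 0.031). Smcr8, a partner of the autophagy factor C9orf72, stood at 38.4 to 43.4 (median 40.3) CPM with boldine and at 21.3 to 29.1 and 37.6 and 31.1 CPM in the vehicle sets (0.48 ± 0.09, adjusted p = 0.031). Lrp10, a sorting receptor, stood at 26.00 to 27.2 (median 26.8) CPM with boldine and at 32.04 to 37.9 and 31.9 and 30.99 CPM (-0.34 ± 0.06, adjusted p = 0.031). No gene was called with the library-set term, where 536 had an unadjusted p under 0.05, DESeq2 called 46 higher and 10 lower, and voom with quality weights called 233 and 101. Leaving out 1 library gave 0 to 125 higher and 0 to 43 lower. The largest counts came without vehicle replicate 5 (125 and 43) or 6 (47 and 9), the 2 high-set vehicle libraries. Leaving out any other library gave 0 or 1 higher and 0 lower. All boldine libraries are of the high set and 4 of the 6 vehicle libraries of the low set. The part of the library set in the counts without the set term was not tested. For 5 of the genes described above, picked across the lists, the vehicle and boldine differences were set side by side. Relative to sham, Myh7 was -6.99 with vehicle and -6.34 with boldine. Atp2a2 was -2.70 and -2.78, Bdh1 -5.12 and -5.08, Sln 6.46 and 6.92, and Gadd45a 1.67 and 1.80. The direct differences of boldine from vehicle for these 5 genes were 0.65 ± 0.66 (adjusted p = 0.85), -0.08 ± 0.24 (adjusted p = 0.97), 0.04 ± 0.58 (adjusted p = 1), 0.46 ± 0.30 (adjusted p = 0.7) and 0.14 ± 0.23 (adjusted p = 0.93). None of them was called, which does not show that the groups were alike.

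The difference between boldine-treated injured and sham muscle was tested against the one at 7 days, where all 10 libraries belong to the high set. It was higher at 28 than at 7 days for 2129 genes (14.2%) and lower for 2113 (14.1%), but the 28-day sham libraries are of the low set, so time and library set cannot be told apart in it. With the set term 857 were higher and 804 lower, and with library totals 637 and 6868. Slow-fibre genes were further below sham at the later time, with 7 of 12 called lower and 1, Casq2, called higher (1.67, adjusted p = 0.0011). Myh7 was -1.63 ± 0.51 (adjusted p = 0.0098) relative to sham at 7 days and -6.34 at 28 days, a difference of -4.70 (adjusted p = 6.0e-05). Tnnt1 was -0.10 ± 0.42 (adjusted p = 0.87) and -3.19 (-3.09, adjusted p = 3.2e-04 between them), and Atp2a2 -0.57 ± 0.26 (adjusted p = 0.073) and -2.78 (-2.21, adjusted p = 4.4e-05). Bdh1 did not differ detectably between the times (-4.43 and -5.08; difference -0.65, adjusted p = 0.5), and neither did Sln (6.62 and 6.92; difference 0.30, adjusted p = 0.85).

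Of the 20 denervation genes, 8 had a difference from sham that was called lower at 28 than at 7 days and 3 a higher one (median -0.80). Of the 16 synapse genes, 4 were called lower and 4 higher (median -0.05). Among all genes tested 14.1% were called lower and 14.2% higher. Some of the genes called lower were nearer to sham at 28 days. Gadd45a went from 4.51 at 7 days to 1.80 at 28 days (-2.71, adjusted p = 5.6e-06), Runx1 from 4.57 to 2.38 (-2.20, adjusted p = 0.0066) and Chrna1 from 3.26 to 1.18 (-2.08, adjusted p = 4.8e-05). Musk did not differ detectably between the times (1.42 and 1.51; difference 0.10, adjusted p = 0.82).

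Other genes crossed from below to above sham or lay nearer to it at 28 days. Actc1 was -4.86 ± 0.47 (adjusted p = 4.6e-10) at 7 days and 1.94 at 28 days, the largest rise between the times among protein-coding genes with a mean of at least 5 CPM (6.80, adjusted p = 1.2e-08). Dhrs7c, a retinol dehydrogenase of the sarcoplasmic reticulum, went from -3.78 to 0.30, not called at 28 days, and Mlf1 from -3.94 to -0.28. Perm1 went from -3.96 to -1.04 and Ckmt2 from -3.17 to -1.01. Fhl2, a LIM-domain cofactor, went from 3.57 to 0.31 and Nfkb2, a subunit of NF-kappa B, from 3.20 to -0.05. Panx1 was 1.67 ± 0.32 (adjusted p = 7.2e-05) above sham at 7 days and below it at 28 days. By list, 29 of 31 proteasome genes and 37 of 46 ribosomal protein genes were lower relative to sham at 28 than at 7 days, and 19 of 26 glycolysis genes higher.

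**Figure D5:**
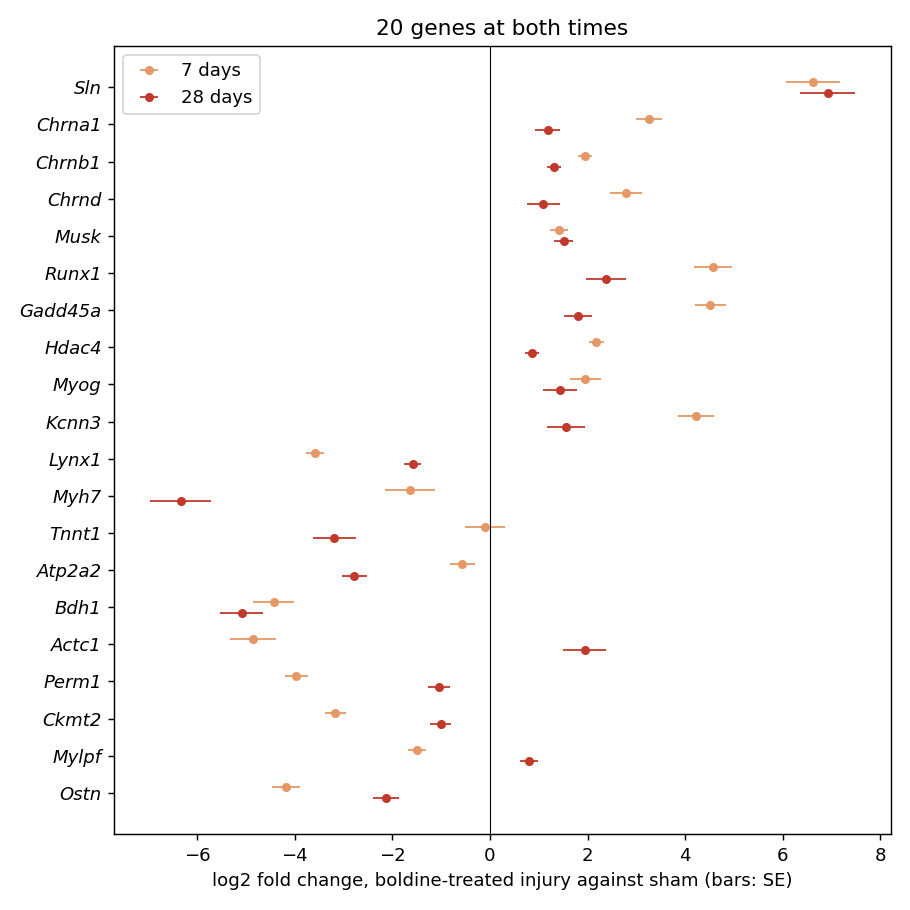
Log2 fold change of boldine-treated injured against sham muscle at 7 days (orange) and 28 days (red) for 20 genes, with bars for 1 standard error. Myh7 (-1.63 and -6.34), Tnnt1 and Atp2a2 are further from 0 at 28 days, Gadd45a (4.51 and 1.80) and Chrna1 are nearer to it, and Actc1 lies on opposite sides.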

How the data were processed

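Messenger RNA of gastrocnemius was sequenced from unstranded NEBNext Ultra libraries, per the labels' protocols. The deposited values are raw counts per gene under Ensembl identifiers; the authors used FastQC, Trim Galore, cutadapt, STAR and mm10, per the submitters' processing notes. The sources used here give no tool version, counting step, strand setting or annotation. Symbols came from GENCODE M21 (55227 of 55487 identifiers). edgeR 4.0.16 in R 4.3.3 (filterByExpr, TMM, glmQLFTest, two-sided) was fitted to all 32 libraries with 1 mean per group, with Benjamini-Hochberg adjustment over 14955 genes and calls at an adjusted p under 0.05. CPM use TMM-scaled totals, and SE is the absolute log2 fold change over the square root of F. Alternatives were RLE factors, library totals, no filter, DESeq2 1.42.0, limma 3.58.1 voom with quality weights, only the groups compared, a library-set term, a replicate block and each library left out. The model was tested on simulated counts. Genes were named by rule: the 12 largest rises and falls (mean of at least 5 CPM, no overlap, protein-coding), leading members of each list, all called members of the slow-fibre, synapse, denervation and calcium lists, and the 5 largest changes each way of the other contrasts. Some genes that this rule names are not reported here. The members and lists were chosen with earlier results of these data known.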

Additional observations from a re-analysis of the deposited data

Results flagged for a closer look

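In the 221 groups of 4 or 6 libraries examined, 1 library stood apart from the rest of its group 13 times, by the ratio of its gap to the whole range (Dixon's criterion). Chance flags about 1 in 20 groups. Values are CPM. In boldine replicate 2, Cyp2e1 (52.3, others up to 16.7), Myl3 (96.3, up to 54.4), Idh2 (146, up to 115) and Lpl (400.2, up to 284) were high. In boldine replicate 4, Lars2 (3128, up to 985) and Ankrd1 (73.0, up to 30.9) were high and Musk was low (25.8, others from 37.0). Boldine replicate 5 was high for Tnnc1 (6.87, up to 2.73) and boldine replicate 3 low for Fhl2 (1.38, from 2.51). Of the sham libraries, replicate 4 was low for Atp2a2 (193, from 389), replicate 3 high for Krt18 (1.14, up to 0.177) and Col4a2 (172, up to 145), and replicate 2 high for Fhl2 (2.81, up to 1.82).

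The difference of boldine-treated injured from sham muscle was not the same at 28 and 7 days for 66 of the genes reported, by the test of that difference (edgeR's quasi-likelihood test, adjusted p under 0.05 over all genes). Time and library set cannot be told apart in these values, since of the 4 groups compared the 28-day sham libraries alone belong to the low set. The values are the log2 difference at 28 days minus that at 7 days. Among sarcomere genes the log2 difference was higher at 28 days for Actc1 (6.80), Mylpf (2.29), Casq2 (1.67) and Actn3 (1.05). Among sarcomere genes the log2 difference was lower at 28 days for Myh7 (-4.70), Tnnt1 (-3.09), Tnnc1 (-2.82), Myl2 (-2.24), Atp2a2 (-2.21), Tnni1 (-2.16), Tpm3 (-1.98), Ankrd1 (-1.85) and Flnc (-1.13). Among synapse, denervation and calcium-handling genes the log2 difference was higher at 28 days for Lynx1 (2.00), Dok7 (1.62), Scn3b (1.30), Trdn (1.29) and Utrn (0.61). Among synapse, denervation and calcium-handling genes the log2 difference was lower at 28 days for Gadd45a (-2.71), Kcnn3 (-2.66), Runx1 (-2.20), Chrna1 (-2.08), Chrnd (-1.69), Cdkn1a (-1.59), Hdac4 (-1.31) and Chrnb1 (-0.62). Among metabolic genes the log2 difference was higher at 28 days for Cyp2e1 (3.25), Perm1 (2.92), Ckmt2 (2.16), Aldh1a1 (1.71), Idh2 (0.85), Gys1 (0.83), Cycs (0.67), Mdh1 (0.57), Ndufs8 (0.56), mt-Co1 (0.53), Esrra (0.43) and Sdhc (0.38). Among metabolic genes the log2 difference was lower at 28 days for Ces2c (-3.72). Among signalling, stress, clock and translation genes the log2 difference was higher at 28 days for Kcna7 (2.08), Ostn (2.05), Fkbp5 (1.93), Kbtbd13 (1.70) and Bhlhe41 (0.65). Among signalling, stress, clock and translation genes the log2 difference was lower at 28 days for Panx1 (-2.80), Myc (-1.62), Hsph1 (-1.27) and Rps4x (-0.34). Among vessel, lipid and structural genes the log2 difference was higher at 28 days for Plin4 (2.19), Ttn (1.39), Neb (1.01), Dmd (0.90) and Vegfa (0.66). Among genes outside the lists the log2 difference was higher at 28 days for A630019I02Rik (7.28), Dhrs7c (4.07), Lars2 (3.72), Mlf1 (3.66), Hipk2 (3.11), Glb1l2 (2.88), Kcnf1 (2.56), Srrm4 (1.46) and Fryl (0.50). Of these, Hipk2 defines the library sets. Among genes outside the lists the log2 difference was lower at 28 days for Fhl2 (-3.27), Nfkb2 (-3.25), Dusp18 (-1.06) and Lrp10 (-0.31).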

How the results depend on the processing

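Of 104 reported genes that were called between boldine and sham, 89 kept their call under every alternative other than the library-set term, and 30 under that term too. The sham group rests on 4 libraries and the set term on 6 vehicle libraries, 2 of them in the high set, which limits what that fit can call. With the term 90 genes were higher and 129 lower, 40 and 60 of them beyond 2-fold, and library totals gave 842 higher and 1999 lower. Other settings gave 1012 to 1699 higher and 1009 to 1904 lower. Boldine against vehicle gave 4 higher and 0 lower with library totals, 1 and 0 with no filter, 46 and 10 with DESeq2, 233 and 101 with voom, 0 and 0 with the groups compared alone, 0 and 0 with the set term, and 0 to 125 higher and 0 to 43 lower with 1 library left out. The day difference gave 637 higher and 6868 lower with library totals and 857 and 804 with the set term. With the set term the sign turned for Hipk2 (-1.24), which defines the sets, A630019I02Rik (-1.03), Lars2 (-0.28) and Nfkb2 (0.23). With 1 library left out it turned for the uncalled Nfkb2 and Casq2: Nfkb2 ranged from -0.12 to 0.0068 (without sham replicate 1; 0.0022 without boldine replicate 4) and Casq2 from -0.32 to 0.054 (without sham replicate 1). The cause of these changes was not tested. With the replicate number as a block, 1215 genes were higher and 1265 lower (287 and 206 beyond 2-fold), boldine against vehicle gave 0 and 0, the day difference 2101 and 2093, and the calls of Krt8, Pln and Utrn ended (adjusted p = 0.057, 0.072 and 0.087). Deviations of same-numbered sham and boldine libraries correlated at 0.010, 0.097, -0.0085 and 0.049. Libraries with different numbers gave -0.082 to 0.079. These few values show no clear pairing by number and cannot exclude one. With voom the calls of Hpgd, Mt2, Krt8 and Ces2c ended (adjusted p = 0.082, 0.15, 0.25 and 0.063), with library totals those of Krt8 and Utrn (0.057 and 0.11), and with no filter that of Pln (0.052).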
